A study of Mus musculus with 10 samples.

Results

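The mitosis and spindle checkpoint genes described here are 36 genes whose products drive cell division, from the proliferation marker Mki67 to the checkpoint kinases of the kinetochore. They were taken by symbol and are represented by 47 of the 39429 probes of the array, or 36 of 20144 named genes. The genes were selected on measured values, in that their log2 differences between the groups of these same hearts were known when they were brought together. Their differences between aldosterone and control hearts are therefore given as descriptions, and nothing is read from how many of them passed a test.

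Ventricles came from male mice given aldosterone, the adrenal hormone that binds the mineralocorticoid receptor, and from untreated male mice, called controls below, both labelled with a duration of 7 days. The titles of both groups also carry the word Ctrl, which the labels do not explain. Each of the 5 aldosterone hearts and 5 control hearts came from its own animal. Strain, age, dose and route are not given in the sources used here. Total RNA of each heart carried Cy5 and was set on a 2-colour Agilent array against a Cy3-labelled pool of liver, brain, heart, kidney and spleen RNA, so each level below is a log2 ratio of a heart to that pool. Scanner files were analysed for 4 aldosterone hearts (replicates 1, 2, 3 and 5) and 5 controls, and aldosterone replicate 4 entered only through the deposited value table of all 10 hearts. The comparison asks how the ventricle's RNA differs after aldosterone.

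The cardiac label held for the defining muscle genes, since 12 of 14 cardiomyocyte markers lay above the pool in the means of both groups. Of these 14, 9 were saturated on all 9 arrays and 2 on some, so their levels are capped. Ckm, muscle creatine kinase and one of the 3 never saturated, stood at 1.74 ± 0.18 in aldosterone hearts (SD, n = 4) and 1.88 ± 0.22 in controls (SD, n = 5). The number of probes with a Cy5 signal well above background, a flag set by the scanner software, ran from 26435 to 27642 per aldosterone array and from 25349 to 27955 per control array. The hearts fell into 2 sets that cross the groups along the first principal component of the probes outside all gene lists, which held 32.7% of their variance. Aldosterone 3 and 5 lay with controls 1, 3 and 4, and aldosterone 1 and 2 with controls 2 and 5. In the value table aldosterone 4 lay with the second set. The 9 arrays sat on 4 slides, with aldosterone arrays always at position 2 and controls at position 1 or 4, so position and treatment cannot be told apart.

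Cyclin-dependent kinase 1, bound to A- and B-type cyclins, drives cells into mitosis, where motors and microtubule-binding proteins build the spindle. The spindle checkpoint holds chromosome separation back until every kinetochore is attached, and the anaphase-promoting complex then marks cyclin B and securin for destruction. Most of these genes are transcribed together late in the cell cycle, through CCAAT boxes bound by NF-Y and through cell cycle homology regions (CHR, core letters TTTGAA) bound by the MuvB complex with B-Myb and FoxM1. Most adult cardiomyocytes do not divide, and dividing cells of the adult ventricle are found mainly among fibroblasts, endothelial cells and leukocytes.

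The promoter sequences are shown because these elements are the feature that members of the group are known to share. RefSeq promoter windows (GRCm38.p6), from 250 bases before to 50 bases after the gene start, were matched for 28 of the 36 genes. Both strands were searched. TTTGAA was in 17 of the 28 windows (60.7%), against 17.9% of all 32851 windows and 16% of the 21263 windows of protein-coding genes. CCAAT was in 22 of 28 (78.6%), against 37.4% of all windows and 38.2% of those of protein-coding genes. Both motifs stood in 15 of 28 (53.6%), against 6.95% and 6.38%. The variant TTTAAA was in 7 of 28 (25%), against 13.2% and 11.9%. Among other mitosis genes, listed separately below, 33 of 66 windows held both TTTGAA and CCAAT. A match of letters is not evidence of binding.

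The 120 bases before the start held both motifs in 6 genes, which are printed 5′ to 3′ on the gene's strand, with TTTGAA and CCAAT, on either strand, in capitals (TTCAAA and ATTGG are their reverse complements). In Top2a 3 CCAAT motifs begin 98, 78 and 58 bases before the start, and the CHR motif 23 bases before it. In Kif11 they begin 45 and 19 bases before the start, and in Ube2c CCAAT motifs begin at 88 and 57 and the CHR motif at 29. In Kntc1 the 2 motifs overlap.
Cdk1 (chr10:69352913-69353032, minus strand): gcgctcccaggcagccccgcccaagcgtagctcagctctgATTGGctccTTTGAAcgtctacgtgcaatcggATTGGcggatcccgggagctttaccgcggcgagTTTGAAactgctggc
Cdc20 (chr4:118437344-118437463, minus strand): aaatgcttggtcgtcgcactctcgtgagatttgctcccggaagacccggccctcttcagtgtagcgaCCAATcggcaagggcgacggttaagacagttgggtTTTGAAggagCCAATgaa
Kif11 (chr19:37376262-37376381, plus strand): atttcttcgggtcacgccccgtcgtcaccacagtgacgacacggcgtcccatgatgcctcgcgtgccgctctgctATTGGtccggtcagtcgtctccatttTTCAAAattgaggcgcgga
Kntc1 (chr5:123749606-123749725, plus strand): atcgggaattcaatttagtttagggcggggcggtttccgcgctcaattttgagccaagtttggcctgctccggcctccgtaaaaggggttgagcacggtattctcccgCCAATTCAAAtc
Top2a (chr11:99024190-99024309, minus strand): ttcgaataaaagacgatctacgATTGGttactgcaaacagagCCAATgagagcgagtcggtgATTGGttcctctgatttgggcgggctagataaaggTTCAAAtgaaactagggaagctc
Ube2c (chr2:164769809-164769928, plus strand): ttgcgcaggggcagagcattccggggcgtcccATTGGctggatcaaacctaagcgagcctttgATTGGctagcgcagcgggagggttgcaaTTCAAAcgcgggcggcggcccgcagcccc

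Of the 36 genes, 33 had a lead probe (the probe of highest mean Cy5 signal) that 4 or more arrays measured well above background, and these 33 were tested. On the scanner arrays 30 of the 33 had a higher mean in aldosterone hearts than in controls, where 51.6% of all 26877 probes tested did. The median difference over the members, aldosterone minus control, was 0.32 on the log2 scale, against 0.0036 over all probes tested. With stray local backgrounds left as deposited, the members' median was 0.17. The value table of 10 hearts gave a median of 0.87, against -0.0027 over all probes, and 30 of 33 were again higher, against 49.1% of probes. Every aldosterone heart lay above every control for 21 members on the scanner arrays (1.37% of all probes) and for 26 in the value table (1.27%), 20 of them in both. RNA was taken from whole ventricle, so a change in the share of dividing cells and a change in RNA per cell cannot be told apart.

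In limma, with Benjamini-Hochberg adjustment over all probes, 0 of the 33 passed an adjusted p of 0.05 on the scanner arrays, as did 0% of all probes. At an unadjusted p under 0.05 there were 25 members higher and 0 lower, beside 3.99% of all probes higher and 2.12% lower at that level. The smallest adjusted p among them was 0.119, for Ccna2. By the value table, 13 members passed as higher and 0 as lower, beside 0.119% of all probes higher and 0.0112% lower, namely Bub1, Bub1b, Ccna2, Cdca5, Cdca8, Cdk1, Dscc1, Dtl, Kif11, Kntc1, Pimreg, Plk1 and Sgo1. With hearts paired by replicate number, which the main fit did not do, 0 passed. The count was 5 with a term for the sets of hearts and 5 with no filter on dim probes. It was 7 over probes well above background on all arrays. It was also 7 in the 9 hearts with scanner files, which is the same fit as leaving out aldosterone 4. That count depended on single hearts, with 2 members passing without aldosterone 3, 3 without aldosterone 1 or 2 or control 2, 4 without aldosterone 5 or control 4, 5 without control 1, 7 without aldosterone 4 or control 3, and 19 without control 5. The median difference of the members ran between 0.80 and 0.99 on leaving out each heart.

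The scales differ for dim spots. On the scanner arrays a constant of 50 units was added to both channels after background correction, which draws the ratio of a dim spot toward 0, whereas the value table carries the scanner software's own ratio with no constant added here. The control arrays alone would not have met the minimum of 4 arrays for 7 members (Bub1, Bub1b, Dscc1, Dtl, Kif11, Knl1 and Kntc1), which entered the tests through the aldosterone arrays. All of these but Knl1 are among the 13 that passed in the value table. Of the 33 members, 25 were well above background on all 9 arrays, and 22 of these were higher in aldosterone hearts, with a median of 0.39 on the scanner arrays and 0.68 in the value table.

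**Figure D1:**
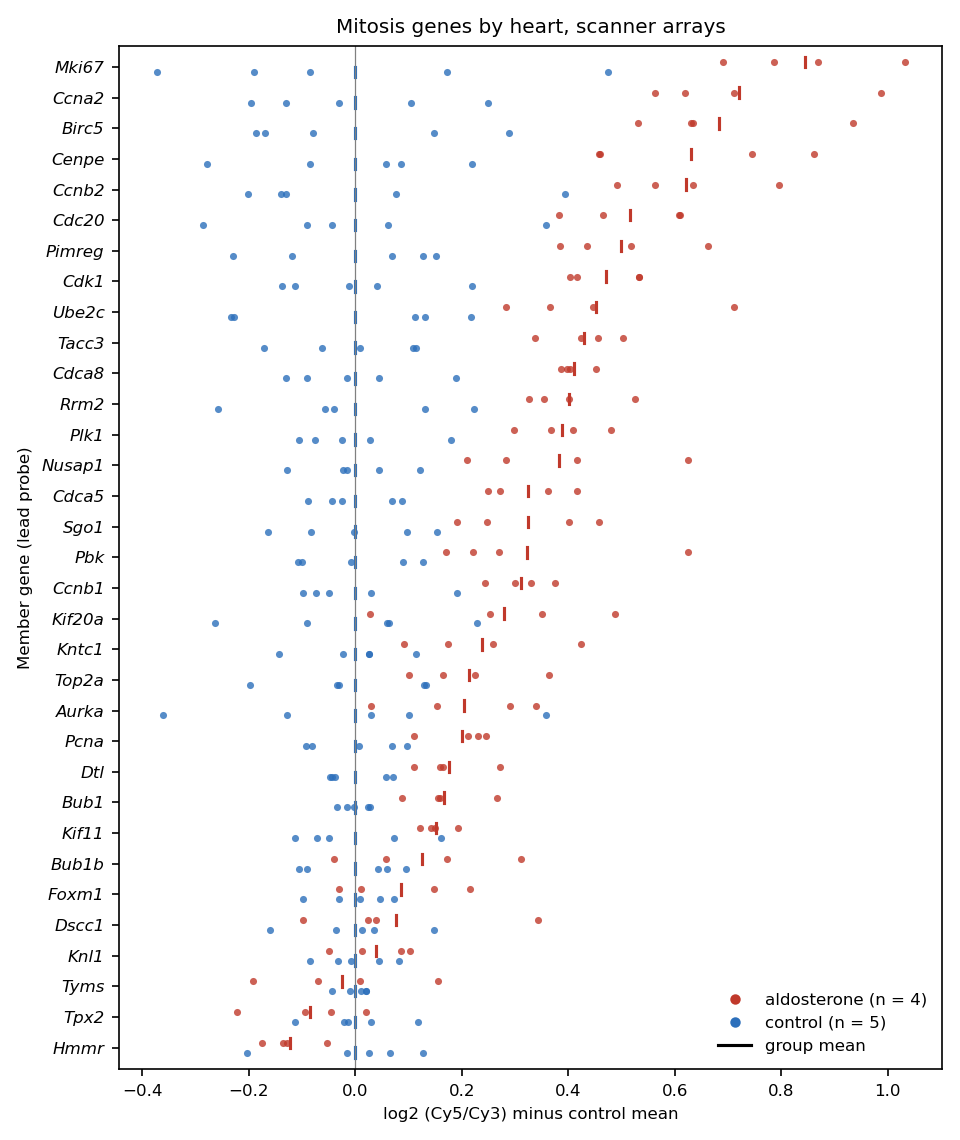
Level of each tested member (lead probe) in each heart on the scanner arrays, as log2 of Cy5 over Cy3 minus the mean of the controls, with aldosterone hearts (n = 4) drawn above controls (n = 5) in each row and a short line at each group mean. Rows are ordered by difference, from Mki67 at 0.84 to Hmmr at -0.12.

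Mki67, the antigen used to count cycling cells in tissue, showed the largest difference among the members on the scanner arrays. Its level was -2.68, -2.84, -2.93 and -3.02 in aldosterone hearts 1, 2, 3 and 5, against -4.09, -3.90, -3.80, -3.54 and -3.24 in control hearts 1 to 5. All aldosterone hearts lay above all controls, and the controls spread more widely than the aldosterone hearts. The difference was 0.84 (SE 0.15), a 1.80-fold higher level, and the value table gave 0.88 (SE 0.16). A second Mki67 probe gave 0.80 (SE 0.14). Top2a, the topoisomerase that untangles chromosomes before they separate, differed by 0.21 (SE 0.08) with groups that overlapped, and by 0.94 (SE 0.18) in the value table, where they did not.

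Of the 8 cyclins and mitotic kinases, 8 had a higher mean in aldosterone hearts, and 3 of them (Ccna2, Cdk1 and Plk1) passed in the value table. Ccna2, the A-type cyclin of S phase and mitotic entry, read -1.31, -1.58, -1.73 and -1.67 in aldosterone hearts 1, 2, 3 and 5, against -2.49, -2.32, -2.42, -2.19 and -2.04 in controls 1 to 5. Aldosterone 1 was the highest of all hearts and control 5 the highest control, and no values overlapped. The difference was 0.72 (SE 0.11), or 1.65-fold, and 1.11 (SE 0.16; adjusted p = 0.0466) in the value table. Ccnb2, a B-type cyclin, averaged -1.92 ± 0.13 in aldosterone hearts (SD, n = 4) and -2.54 ± 0.24 in controls (SD, n = 5), a difference of 0.62 (SE 0.12). Ccnb1, the main mitotic cyclin, differed by 0.31 (SE 0.07) on its brightest probe. Its second probe, well above background on 3 aldosterone arrays and 1 control array, gave 0.02 (SE 0.07), and a further probe was not well above background on any array.

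Cdk1, the kinase these cyclins activate, read -0.81, -0.94, -0.81 and -0.93 in aldosterone hearts 1, 2, 3 and 5, against -1.46, -1.36, -1.48, -1.30 and -1.13 in controls 1 to 5. The groups did not overlap on its lead probe, which differed by 0.47 (SE 0.08), and by 0.99 (SE 0.14) in the value table. A second Cdk1 probe differed by 0.01 (SE 0.08), and by 0.07 (SE 0.21) in the value table, with overlap on both scales. Another was well above background on 2 aldosterone arrays and 0 control arrays. That probe was left out by the filter, and without the filter it differed by 1.12 (SE 0.35) in the value table. Plk1, the polo-like kinase that acts from mitotic entry to cytokinesis, read -2.09, -2.13, -2.20 and -2.02 in the same aldosterone hearts, against -2.57, -2.60, -2.52, -2.47 and -2.32 in controls. Its values were tight within each group, and the difference was 0.39 (SE 0.07).

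Pbk, a mitotic kinase, differed by 0.32 (SE 0.10), and by 1.62 (SE 0.39) in the value table, where its control hearts ran from -3.63 to -1.27. Aurka, the kinase of the spindle poles, differed by 0.20 (SE 0.13), with overlapping groups, and was lower in the aldosterone array on 1 of 4 slides. Foxm1, the transcription factor that drives many late cell cycle genes, differed by 0.09 (SE 0.07) and also overlapped between groups. Its second probe was not well above background on any array. Foxm1 in the value table differed by 0.39 (SE 0.13).

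**Figure D2:**
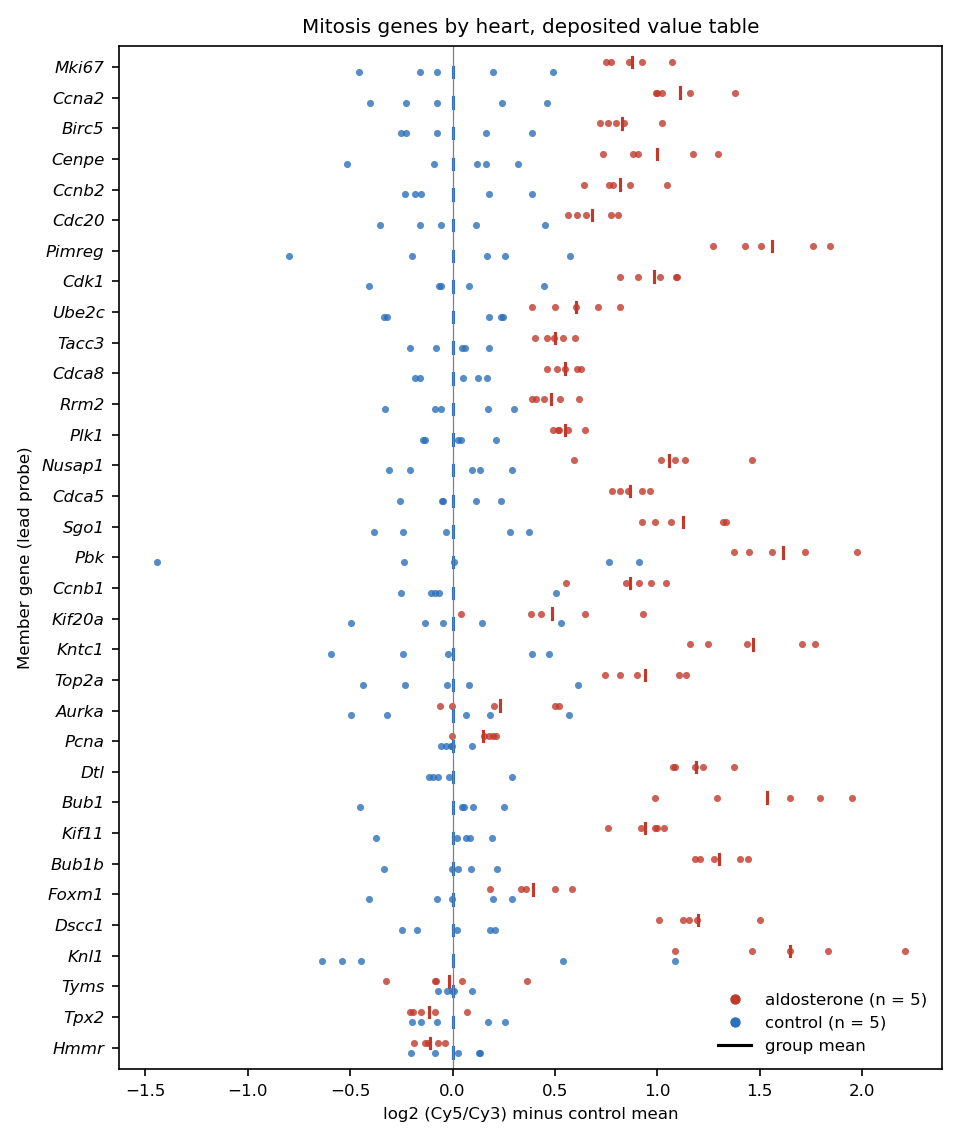
Level of each tested member (lead probe) in each heart in the deposited value table, as log2 of Cy5 over Cy3 minus the mean of the controls, with aldosterone hearts (n = 5) above controls (n = 5) in each row, a short line at each group mean and rows in the order of the scanner arrays. Dim members such as Bub1, Knl1 and Pbk spread more widely than on the scanner arrays. Every aldosterone heart lies above every control for 26 of 33 members, beside 1.27% of all probes tested.

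The chromosomal passenger complex, which corrects faulty spindle attachments, was represented by Birc5, Cdca8 and Aurkb. Birc5, the survivin subunit, read -2.28, -2.68, -2.58 and -2.58 in aldosterone hearts 1, 2, 3 and 5, against -3.38, -3.40, -3.29, -3.07 and -2.93 in controls 1 to 5. Every aldosterone heart was above every control, by 0.68 on average (SE 0.11). The other 2 Birc5 probes differed by 0.22 (SE 0.08) and 0.18 (SE 0.07) with overlap between groups, and by 0.70 (SE 0.11) and 0.96 (SE 0.11) in the value table. Cdca8, the borealin subunit, read -1.77, -1.76, -1.71 and -1.76 in the same aldosterone hearts, against -2.25, -2.29, -2.12, -2.18 and -1.97 in controls. The aldosterone values were tight and lay above all controls, with a difference of 0.41 (SE 0.07). Its second probe gave 0.09 (SE 0.07), with overlap.

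Aurkb, the kinase of the same complex, was well above background on 0 of 4 aldosterone arrays and on 1 of 5 control arrays. It was not tested. Its ratios were -0.27, -0.22, -0.30 and -0.14 in aldosterone hearts 1, 2, 3 and 5, against -0.27, -0.21, -0.09, -0.27 and -0.14 in controls 1 to 5, and the groups overlapped.

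Cohesion between sister chromatids is guarded by shugoshin, encoded by Sgo1, and stabilised by sororin, encoded by Cdca5. Cdca5 read -1.77, -1.94, -1.91 and -1.82 in aldosterone hearts 1, 2, 3 and 5, against -2.23, -2.21, -2.27, -2.12 and -2.10 in controls 1 to 5. Both groups were narrow and did not overlap, with a difference of 0.33 (SE 0.06), and of 0.87 (SE 0.09) in the value table. Sgo1 read -0.79, -0.73, -0.997 and -0.94 in the same aldosterone hearts, against -1.27, -1.35, -1.19, -1.09 and -1.03 in controls, a difference of 0.32 (SE 0.08). Aldosterone 3 and control 5 were the closest pair, and the groups did not overlap.

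Several checkpoint and kinetochore genes were dim in these hearts, and the groups differed in whether they were detected. Bub1, the kinase that recruits checkpoint proteins to kinetochores, Knl1, the scaffold it binds, and Dscc1, a subunit of the clamp loader that supports cohesion, were well above background on 4 of 4 aldosterone arrays and 0 of 5 control arrays. Of all 39429 probes, 11 (0.0279%) had that pattern and 0 (0%) had the reverse one, with all controls and no aldosterone array well above background. Kntc1 and Bub1b were detected on 4 of 4 aldosterone arrays and 1 of 5 control arrays, Dtl on 4 and 2, Kif11 on 4 and 3, and Pbk on 4 and 4. Per array, 33 of the 36 lead probes were detected on each aldosterone array, against 26 to 30 on the controls. Control 3, which detected the most probes of all arrays, had 30.

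**Figure D3:**
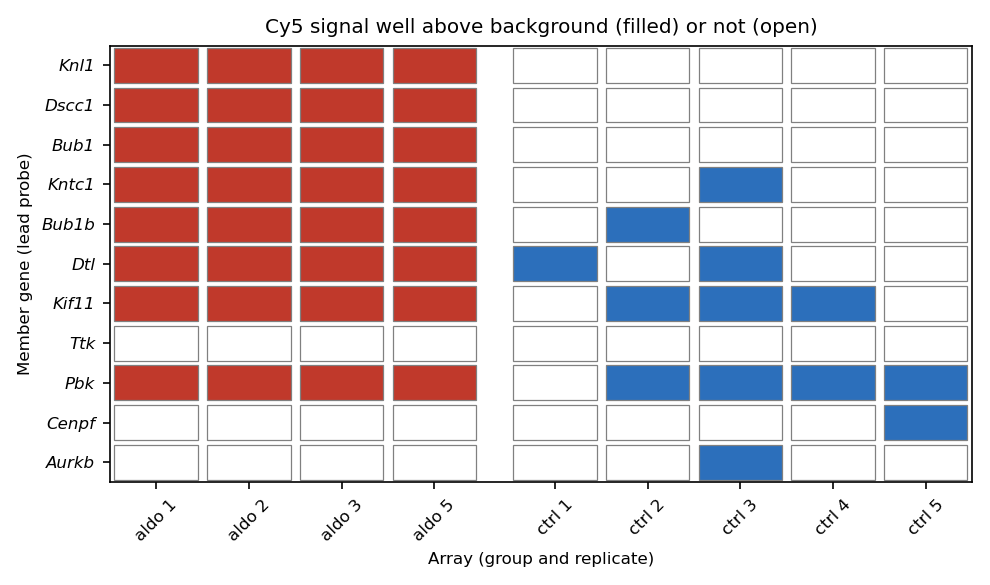
Detection of the 11 members whose lead probe was not well above background on every array, with a filled tile where Cy5 was well above background and an open tile where it was not, for aldosterone arrays (left) and control arrays (right). Knl1, Dscc1 and Bub1 are filled on all 4 aldosterone arrays and open on all 5 control arrays.

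Bub1 was -0.23, -0.34, -0.34 and -0.41 in aldosterone hearts 1, 2, 3 and 5, against -0.51, -0.47, -0.53, -0.47 and -0.50 in controls 1 to 5 on the scanner scale. No values overlapped, and mean normalized Cy5 was 1.16-fold brighter in aldosterone hearts. A lower bound was sought by raising each control spot to the lowest level of any probe well above background on its array. For Bub1, Knl1 and Dscc1 that floor changed no control value, so the folds given are measured differences and not bounds. The value table gave Bub1 at -0.77, -0.93, -1.07, -1.73 and -1.43 in aldosterone hearts 1 to 5, against -3.17, -2.68, -2.62, -2.67 and -2.47 in controls. Again the groups stood apart, by 1.54 (SE 0.19), with aldosterone 4 the lowest of its group.

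Bub1b, which encodes the checkpoint component BubR1, differed by 0.13 (SE 0.08) on the scanner scale, with overlap. It read -1.16, -1.12, -1.36, -1.29 and -1.38 in the value table in aldosterone hearts 1 to 5, against -2.90, -2.35, -2.54, -2.57 and -2.47 in controls. The difference there was 1.30 (SE 0.10), and the groups were well separated. Only 1 of 5 control arrays measured Bub1b well above background, so it entered the fits through the aldosterone arrays. Kntc1, a subunit of the complex that brings dynein and Mad1 to kinetochores, read -0.46, -0.40, -0.73, -0.92 and -1.01 in the value table in aldosterone hearts, against -2.76, -2.41, -1.78, -2.19 and -1.70 in controls. It differed by 1.47 (SE 0.21), and by 0.24 (SE 0.08) on the scanner scale, where the groups overlapped.

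Knl1 differed by 0.04 (SE 0.06) on the scanner scale and by 1.65 (SE 0.35) in the value table. Its ratios there were -1.70, -2.07, -1.89, -2.45 and -1.33 in aldosterone hearts 1 to 5, against -4.17, -3.00, -4.08, -3.98 and -2.45 in controls 1 to 5. The groups only just failed to overlap, with aldosterone 4 and control 5 equal to 2 decimals, whereas they overlapped on the scanner scale. Its mean normalized Cy5 was 1.101-fold brighter in aldosterone hearts, as measured. Cenpe, the kinetochore motor that moves chromosomes to the spindle equator, was well above background on all 9 arrays. It read -1.34, -1.74, -1.45 and -1.74 in aldosterone hearts 1, 2, 3 and 5, against -2.48, -2.29, -2.14, -2.11 and -1.98 in controls 1 to 5, a difference of 0.63 (SE 0.12), and of 0.999 (SE 0.16) in the value table.

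Cenpf and Ttk were not tested. Cenpf, a kinetochore protein of late G2, was well above background on 0 aldosterone arrays and 1 control array. Its ratios were 0.11, 0.01, 0.08 and -0.16 in aldosterone hearts 1, 2, 3 and 5, against 0.31, 0.25, -0.05, 0.06 and 0.29 in controls 1 to 5, with overlap. Ttk, the checkpoint kinase Mps1, was not well above background on any array, and its ratios of 0.07, 0.08, -0.06 and -0.02 in aldosterone hearts and -0.16, -0.18, 0.21, -0.11 and -0.07 in controls overlapped.

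Exit from mitosis runs through the anaphase-promoting complex, which Cdc20 activates and for which Ube2c supplies ubiquitin. Cdc20 averaged -1.88 ± 0.11 in aldosterone hearts (SD, n = 4) and -2.39 ± 0.24 in controls (SD, n = 5), a difference of 0.52 (SE 0.11). Ube2c differed by 0.45 (SE 0.12) on its lead probe and by 0.49 (SE 0.10) on its second. For both genes all aldosterone hearts lay above all controls, though Cdc20 in aldosterone 5 and control 5 differed by only 0.02. Pimreg, a mitotic regulator, read 0.37, 0.50, 0.42 and 0.64 in aldosterone hearts 1, 2, 3 and 5, against -0.25, -0.14, 0.13, 0.05 and 0.11 in controls 1 to 5. It differed by 0.50 (SE 0.09), and by 1.56 (SE 0.23) in the value table, with no overlap.

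Of 6 motors and spindle proteins, 4 had a higher mean in aldosterone hearts. Tacc3, which stabilises spindle microtubules, read -0.98, -1.02, -1.14 and -1.06 in aldosterone hearts 1, 2, 3 and 5, against -1.65, -1.54, -1.47, -1.37 and -1.37 in controls 1 to 5. The groups were well separated, by 0.43 (SE 0.07) here and 0.50 (SE 0.08) in the value table. Nusap1, which bundles spindle microtubules, differed by 0.38 (SE 0.09) without overlap. Kif20a, a kinesin of the central spindle, differed by 0.28 (SE 0.11) with overlap and was lower in the aldosterone array on 1 of 4 slides.

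Kif11, the kinesin that pushes spindle poles apart, differed by 0.15 (SE 0.07) on the scanner scale, where control 5 overlapped the aldosterone hearts. The value table read -1.23, -1.22, -1.19, -1.30 and -1.46 in aldosterone hearts 1 to 5, against -2.59, -2.19, -2.13, -2.15 and -2.03 in controls, a difference of 0.94 (SE 0.11) without overlap. Hmmr, a spindle and hyaluronan-binding protein, differed by -0.12 (SE 0.07), with overlap. Tpx2, which activates Aurora A on spindle microtubules, had 2 probes that disagreed. The lead probe differed by -0.09 (SE 0.07) and the other by 0.39 (SE 0.09) with all aldosterone hearts above all controls.

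Of 5 DNA synthesis genes, 4 had a higher mean in aldosterone hearts. Rrm2, the regulated subunit of ribonucleotide reductase, read -2.50, -2.47, -2.43 and -2.30 in aldosterone hearts 1, 2, 3 and 5, against -2.87, -3.09, -2.88, -2.70 and -2.60 in controls 1 to 5, a difference of 0.40 (SE 0.09) without overlap. Pcna, the sliding clamp of replication, differed by 0.20 (SE 0.06), also without overlap, and by 0.15 (SE 0.06) with overlap in the value table. Tyms, thymidylate synthase, differed by -0.02 (SE 0.07), with controls between 0.22 and 0.28 inside the wider aldosterone range of 0.07 to 0.42.

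Dtl, the adaptor that directs ubiquitination of proteins bound to the clamp, read -1.87, -2.06, -2.16, -2.17 and -2.02 in the value table in aldosterone hearts 1 to 5, against -3.26, -3.36, -3.32, -3.34 and -2.95 in controls 1 to 5. It differed by 1.19 (SE 0.09) there and by 0.18 (SE 0.06) on the scanner scale, without overlap on either. Only 2 of 5 control arrays measured Dtl well above background, so it too entered the fits through the aldosterone arrays. Dscc1 read -0.52, -1.01, -0.87, -0.90 and -0.83 in the value table in aldosterone hearts, against -1.84, -2.19, -2.27, -1.997 and -1.81 in controls, a difference of 1.20 (SE 0.12). On the scanner scale Dscc1 was 0.10, -0.20, -0.22 and -0.34 in aldosterone hearts 1, 2, 3 and 5, against -0.09, -0.40, -0.28, -0.21 and -0.23 in controls, and overlapped. Its mean normalized Cy5 level was 1.14-fold brighter in aldosterone hearts, as measured.

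**Figure D4:**
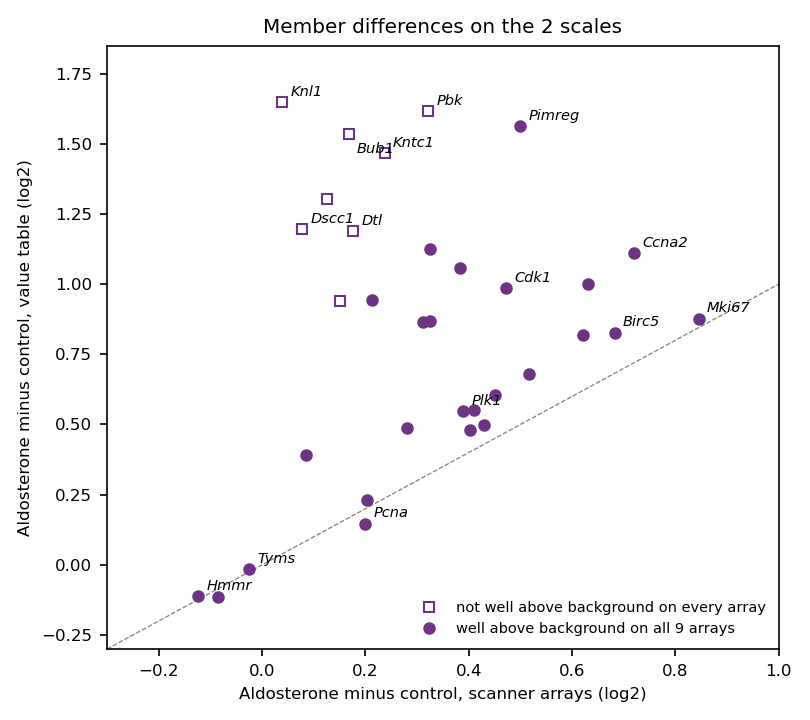
Difference of each tested member (aldosterone minus control, log2) on the scanner arrays (horizontal, 4 against 5 hearts) and in the value table (vertical, 5 against 5 hearts), with a dashed line of equality. Most of the 25 members well above background on all 9 arrays (filled) run closer to the line than the 8 that were not (open squares). Knl1, an open square, reads 0.04 and 1.65, while Mki67 reads 0.84 and 0.88. The kinds overlap, since Pimreg (filled) reads 0.50 and 1.56 and Kif11 (open square) 0.15 and 0.94.

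Over the hearts, the median member stood 0.36, 0.28, 0.27 and 0.28 above the control mean in aldosterone hearts 1, 2, 3 and 5 on the scanner arrays, against -0.04, -0.10, -0.04, 0.07 and 0.11 in controls 1 to 5. By the value table these medians were 1.02, 0.88, 0.91, 0.75 and 0.80 in aldosterone hearts 1 to 5, against -0.26, -0.16, -0.03, 0.11 and 0.26 in controls. No heart crossed between groups on either scale. Within the 4 slides the median difference was 0.45, 0.32, 0.20 and 0.14, while the median over all probes lay between -0.01 and 0.03. On these slides 32, 31, 28 and 26 of 33 members were higher, beside 54.7%, 57.2%, 47.7% and 46.5% of all probes. The members were chosen with the group differences known, so these values are descriptions. Within the set of controls 1, 3 and 4 and aldosterone 3 and 5 the members' median was 0.25, against 0.0013 over all probes. Within the set of controls 2 and 5 and aldosterone 1 and 2 it was 0.35, against 0.0040.

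Other genes of cell division, taken from textbook lists and not among the 36, were read from the same fit. These lists were also chosen with earlier results of these data known, so their counts are descriptions. Of 69 other mitosis genes 53 were tested, and 53 of 53 had a higher mean in aldosterone hearts (51.6% of all probes), with a median of 0.15 on the scanner arrays. Of these, 27 had an unadjusted p under 0.05 (3.99% of all probes), all higher, and 15 had every aldosterone heart above every control (1.37%). Among the 36 of them well above background on all 9 arrays, 36 were higher, with a median of 0.19. By the value table, 50 of 53 were higher, with a median of 0.56, and 3 passed the adjusted test (0.119% of all probes), namely Cdca3, Ccnf and Melk.

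The 2 largest of these differences were in Prc1 and Anln, genes of cytokinesis. Prc1, which bundles the microtubules of the central spindle, averaged -0.75 ± 0.14 in aldosterone hearts (SD, n = 4) and -1.59 ± 0.27 in controls (SD, n = 5), a difference of 0.84 (SE 0.13). Anln, the anillin of the contractile ring, differed by 0.56 (SE 0.09), and Ska1, a kinetochore protein, by 0.38 (SE 0.06). All 3 showed no overlap between groups. Cdca3, a trigger of mitotic entry, differed by 0.36 (SE 0.06) on the scanner arrays, cyclin F (Ccnf) by 0.25 (SE 0.07) and the kinase Melk by 0.28 (SE 0.08).

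Other DNA synthesis genes gave smaller values, with 28 of 31 higher (51.6% of all probes) and a median of 0.12. Of these, 9 had an unadjusted p under 0.05, all higher (3.99% of all probes). Uhrf1, which carries DNA methylation through replication, differed by 0.41 (SE 0.09), Ezh2, a histone methyltransferase, by 0.25 (SE 0.07) and Pole, a replicative polymerase, by 0.24 (SE 0.07). Subunits and regulators of the anaphase-promoting complex outside the 36 genes had a median of 0.03 with 11 of 18 higher. The exception at an unadjusted p under 0.05 was Fbxo5, the inhibitor Emi1, at 0.29 (SE 0.08). The DREAM and MuvB genes, which bind the promoters of mitosis genes, had a median of 0.06 with 7 of 12 higher and 0 at that level, including Lin54 at 0.13 (SE 0.07), Tfdp1 at 0.17 (SE 0.10) and Mybl2, the B-Myb gene, at 0.11 (SE 0.08). No gene of the last 3 lists passed in the value table.

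**Figure D5:**
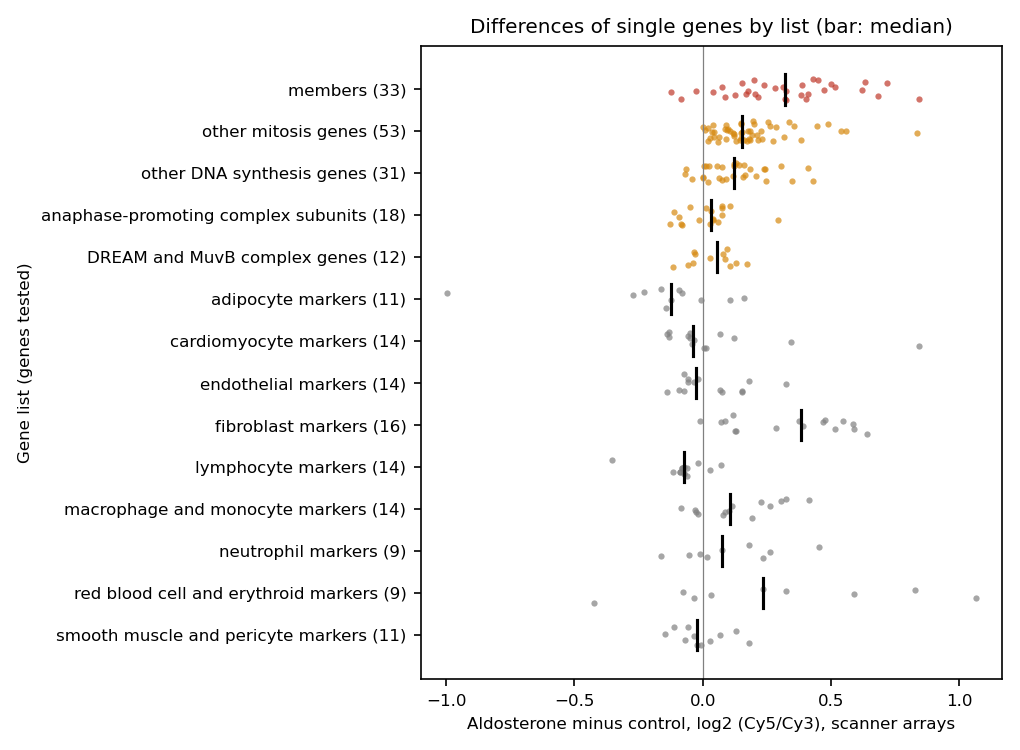
Difference of each tested gene (aldosterone minus control, log2, scanner arrays, 4 against 5 hearts) by list, with the number tested in brackets and a black bar at the median. The members (median 0.32) and other mitosis genes (0.15) lie mostly right of 0, as do fibroblast markers (0.38), while DREAM and MuvB genes (0.06) lie on both sides of 0. Red blood cell and erythroid markers have a median of 0.23, with 6 of 9 right of 0.

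Markers of the cell types that a ventricle holds were measured beside these genes, as mean log2 ratios over each list. Of all probes tested, 51.6% had a higher mean in aldosterone hearts, and 3.99% were higher at an unadjusted p under 0.05. Fibroblast markers were higher for 15 of 16, 10 of them at an unadjusted p under 0.05, with a median difference of 0.38. Their mean ran from 0.72 to 1.12 in aldosterone hearts and from 0.38 to 0.95 in controls. Red blood cell and erythroid markers were higher for 6 of 9, running from -2.10 to -1.73 in aldosterone hearts and from -2.72 to -2.02 in controls. Their median difference was 0.23, with 5 of the 9 higher and 0 lower at an unadjusted p under 0.05. Their summed raw Cy5 signal, not corrected for background or normalized, did not overlap, at 180484 to 202041 units in aldosterone hearts and 127672 to 176241 in controls. Of the 9 markers, 1 was saturated on every array and 2 on some. The summed signals of all other lists overlapped, as for fibroblast markers at 143920 to 202614 and 113021 to 160669 units. Macrophage and monocyte markers were higher for 10 of 14, from -1.31 to -0.98 in aldosterone hearts and from -1.68 to -0.86 in controls. Neutrophil markers were higher for 6 of 9, from -4.57 to -4.11 in aldosterone hearts and from -4.70 to -4.38 in controls. Lymphocyte markers were higher for 2 of 14, from -2.46 to -2.29 in aldosterone hearts and from -2.47 to -2.18 in controls. Endothelial markers were higher for 6 of 14, from 0.75 to 0.83 in aldosterone hearts and from 0.62 to 0.84 in controls. Cardiomyocyte markers were higher for 6 of 14, from 1.18 to 1.38 in aldosterone hearts and from 1.01 to 1.399 in controls, where 9 of 14 were saturated on every array and carry capped values. Smooth muscle and pericyte markers were higher for 4 of 11, from 0.82 to 1.03 in aldosterone hearts and from 0.71 to 1.05 in controls. Adipocyte markers were higher for 2 of 11, from -0.12 to 0.16 in aldosterone hearts and from 0.02 to 0.28 in controls. The mean log2 ratios of each of these 9 lists overlapped between groups. The part of these cell types in the difference of the mitosis genes was not tested.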

How the data were processed

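Per the file headers, the authors read the 2-colour arrays with Agilent Feature Extraction 10.7.3.1. Their deposited scanner files give, for each spot, an intensity per channel, quality flags and a log10 ratio of Cy5 over Cy3. The authors' deposited value table holds log2 ratios for 10 hearts. On the 9 arrays with scanner files it matched the scanner's ratio on the log2 scale (Pearson r from 0.996 to 1.00, slope 1.00, 82.7% to 86.6% of probes within 0.001), with Cy5 over Cy3 and no centring seen. The columns of aldosterone hearts 1 to 5 had medians of 0.04, 0.08, 0.11, -0.0066 and 0.04, and those of control hearts 1 to 5 had medians of 0.06, 0.06, 0.12, 0.02 and 0.02.

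Median spot intensity was background-corrected with normexp (offset 50) and normalized by loess within arrays in limma 3.58.1 (R 4.3.3), giving control spots no weight. Local backgrounds more than 20 units from an array's median were first replaced by that median, because on control 1 they reached 11739.5 units and set the normexp noise SD to 193, against 0.866 to 16.2 on other arrays and 1.34 on control 1 after replacement. The 1667 spots with outlier flags were left out. No member probe was saturated. Accessions matched RefSeq records (GRCm38.p6) for 26581 probes, and 12848 stayed unnamed. Coordinates are given only for the RefSeq promoter stretches, because the array was designed on another assembly.

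Probes well above background in Cy5 on at least 4 arrays were fitted with limma (two-sided, 26877 probes, threshold 0.05), and a gene was read from its probe of highest signal. The members and lists were chosen with earlier results of these data known. Values in every heart are given for members that passed in either fit, the 8 of smallest p and those dark in a whole group, with up to 3 genes of smallest p for each other list. Replicate numbers are shared between groups, but deviations of same-numbered hearts correlated at 0.06, 0.34, 0.34 and -0.32 for numbers 1, 2, 3 and 5, so they were not taken as pairs. Precision is limited by the number of arrays.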

Additional observations from a re-analysis of the deposited data

How the results depend on the processing

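On the scanner arrays the median difference of the members, 0.32, was 0.17 with no stray backgrounds replaced, 0.46 with an offset of 16, 0.40 with median centring in place of loess and 0.50 with offset 16 over probes well above background on all arrays, the last chosen after seeing the data. A lower offset adds less to dim spots by construction, and the cause of the others was not tested. It was 0.31 with slide as a block. With a term for the sets of hearts 6 probes and 1 member (Ccna2) were called. The replicate block, which pairs hearts by number only, gave 2 probes, 0 members and a median of 0.34. Leaving out 1 array gave 0 to 12 probes, 0 to 5 members and a median of 0.29 to 0.35. The 5 members, Ccna2, Ccnb2, Cdca8, Cdk1 and Mki67, were called without control 5. Of 710 single differences in these alternatives, 57 moved by more than the spread between hearts. Knl1 was positive in 19 of 20 alternatives (lowest -0.05), Dscc1 in 19 of 20 (lowest -0.01) and Tyms in 2 of 22. The other tested members kept their sign.

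In the value table, where 35 probes and 13 members were called, there were 10 probes and 5 members with no filter on dim probes, 7 members and a median of 0.68 with probes well above background on all arrays, 15 probes and 7 members in the 9 hearts with scanner files, 14 probes and 5 members with a term for the sets, and 0 probes and 0 members with the replicate block, where 2029 probes had an unadjusted p under 0.05 and the median stayed at 0.87. Without 1 heart it gave 2 to 57 probes, 2 to 19 members and a median of 0.80 to 0.99. These alternatives gave 553 single differences over all tested members, but only the 13 called members could lose a call. Each of the 13 was read in 16 or 17 alternatives, and 117 of their differences no longer passed. None of the 13 called differences changed sign in any alternative. Dim signals limit the size of the difference most for Bub1, Bub1b, Knl1, Kntc1, Dscc1 and Dtl, which few control arrays measured.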

Other observations

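Aldosterone 1 was the highest aldosterone heart for 19 of 33 members on the scanner arrays and for 17 in the value table. Among controls, control 5 was the highest for 17 of 33 members on the scanner arrays and for 25 in the value table, and control 1 was the lowest for 22 in the value table. Aldosterone 4, absent from the scanner arrays here, was the lowest aldosterone heart for 15 of 33 members in the value table and the highest for 0. Most members lay below the tissue pool, with 30 of 33 below it in aldosterone hearts and 31 of 33 in controls by their mean.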
